A study of Chlorella sp. with 12 samples.

Results

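Among 155503 unigenes of *Chlorella* sp. TLD6B, 11 were selected on their FPKM and annotation. They had an FPKM of at least 10 in both libraries of the control on day 0 (CK0) and below 0.5 in all 10 libraries of day 18, with no KO identifier of KEGG but with a SwissProt description or a PFAM domain. FPKM is the number of sequenced fragments per kilobase of a unigene, divided by the depth of its library. A unigene is an assembled transcript, or group of transcripts, that stands for a gene or a part or variant of one. The rule used the FPKM of all 12 libraries, so the levels of the 11 unigenes are given as a description and were not tested.

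*Chlorella* sp. TLD6B is a unicellular green alga from a desert soil. All cultures were strain TLD6B in BBM medium and were started from cells in logarithmic growth. CK0 was untreated and taken on day 0, CK18 was untreated and taken on day 18, and the treated groups were also taken on day 18. NaCl was added to 0.1 M in Nacl1 and to 0.8 M in Nacl2, and PEG-6000 was added to 0.05 g/mL in PEG1 and to 0.1 g/mL in PEG2, with 2 biological replicates in each of these 6 groups. No treated culture was taken on day 0, so the 11 unigenes set 1 group of 2 libraries against 5 groups, and the age of the culture cannot be told apart from anything else that separated the day-0 sampling from the later one. In bulk RNA, fewer cells that carry a transcript and less of it per cell cannot be told apart.

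The names attached to the 11 unigenes belong to a few well-known families. Phototropins are blue-light receptors in which light-sensing domains of the PAS fold are joined to a serine/threonine kinase, and in *Chlamydomonas* phototropin takes part in the control of the sexual cycle. Family B DNA polymerases copy the genome and proofread with an exonuclease domain, while DNA polymerase IV of bacteria belongs to the polymerases that copy across damaged bases. ABC transporters use ATP to move compounds across membranes, and in mammals RTP801 restrains growth signalling under stress.

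Best hits in the NR protein database were proteins of *Chlorella variabilis* for all 11 unigenes, compared with 42.9% of the 70450 unigenes that fulfil the annotation part of the rule. The 11 hits were 8 different proteins, all of them hypothetical proteins in NR, so each protein is called here by the SwissProt or PFAM annotation of its day-0 unigenes. A phototropin-like protein was the best hit of 3 unigenes, a protein with an RTP801 C-terminal region that of another 2, and each of the other 6 proteins was the best hit of 1 unigene. Of the 11 unigenes, 5 had a SwissProt description, 6 had a PFAM domain only, 1 had a KOG entry and 7 had no hit in the NT nucleotide database. Their lengths ran from 1055 to 6261 bp with a median of 3224 bp, against a median of 1467 bp over the unigenes of the annotation rule and 1297 bp over all unigenes. All 11 had identifiers that begin with Cluster-31803, which is no distinction because 74.4% of all unigenes did.

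Depth was estimated from the FPKM that 1 fragment is worth at each length, which gave about 17900000 to 28100000 mapped fragments per library, with 21200000 and 20800000 in CK0 replicates 1 and 2. The search for that FPKM was limited to a preset window around an assumed depth. The depths and the fragment numbers derived from them are therefore approximate. Unigenes with a best hit in green algae took 92.3% of the FPKM with an NR hit in CK0 replicate 1 and 95.6% in CK0 replicate 2. In the day-18 libraries the share was 95.7% to 97.2%, so mainly CK0 replicate 1 stood apart. The part of these differences in the levels below was not tested. On the log2 scale the replicates of a group correlated at 0.849 (PEG2) to 0.898 (Nacl2) across unigenes, with 0.861 in CK0.

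The 11 unigenes summed to 298 FPKM in CK0 replicate 1 and 411 FPKM in CK0 replicate 2. On day 18 their sum ran from 0.06 FPKM (CK18 replicate 2 and PEG2 replicate 2) to 1.19 FPKM (Nacl2 replicate 2). Of the 110 values on day 18, 79 were listed at 0 and 31 were above 0, and the latter were 2 of 22 values in CK18, 8 in Nacl1, 9 in Nacl2, 6 in PEG1 and 6 in PEG2. An FPKM of 0 in a file without counts means that no fragment was assigned to that unigene, which RSEM can also do when a similar unigene takes the fragments. The unigenes did not differ in 1 direction between the CK0 libraries, as 6 were higher in replicate 1 and 5 in replicate 2.

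**Figure D1:**
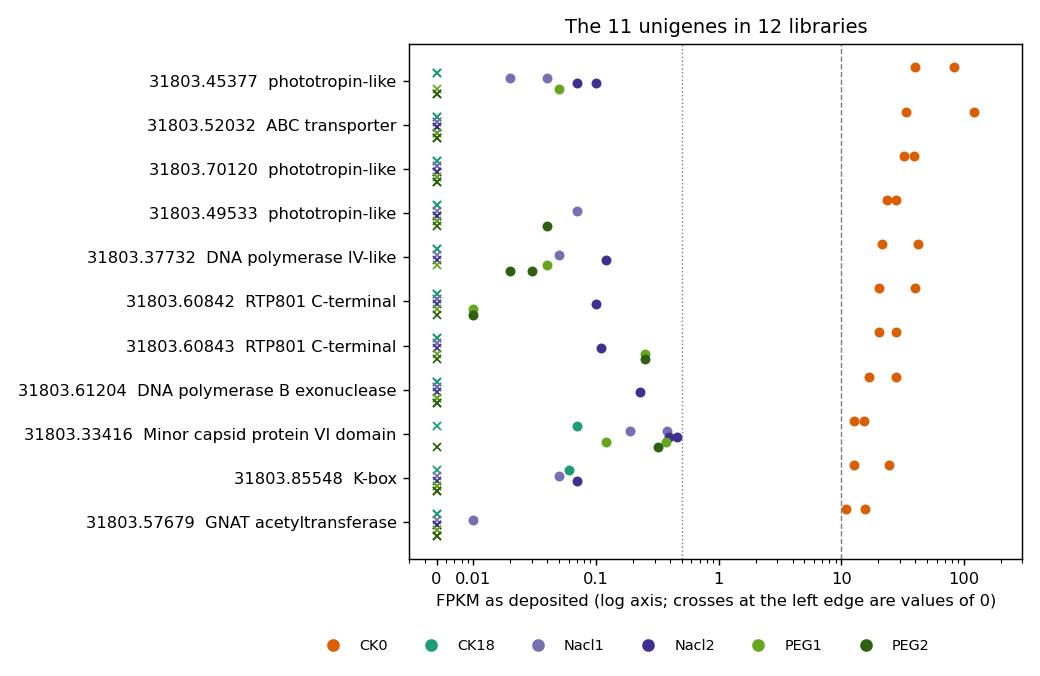
FPKM as deposited (log axis, crosses at the left edge for values of 0) of each of the 11 unigenes in the 12 libraries, 1 point per library, coloured by group. The dashed and dotted lines are the limits of 10 and 0.5 FPKM; every CK0 value lies between 10.88 and 120.83, and the highest day-18 value is 0.46.

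The 3 phototropin-like unigenes came first among the signalling proteins. Cluster-31803.45377, described as Phototropin-1A and carrying PAS folds and a kinase domain, had 39.54 and 82.70 FPKM in CK0, which correspond to about 4244 and 8702 fragments. It was at 0 in both CK18 and both PEG2 libraries, at 0.04 and 0.02 FPKM in Nacl1, at 0.07 and 0.10 FPKM in Nacl2, and at 0.05 and 0 FPKM in PEG1. CK0 replicate 2 was 2.09 times as high as replicate 1 for this unigene, while all day-18 libraries were at or near 0.

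Cluster-31803.70120 had the same best NR hit, although its SwissProt description was Protein kinase PINOID, a kinase that directs auxin transport in *Arabidopsis*. Its FPKM was 39.28 and 32.30 in CK0 and 0 in all 10 day-18 libraries. Cluster-31803.49533, described as Phototropin-1, had 27.95 and 23.79 FPKM in CK0, 0.07 FPKM in Nacl1 replicate 1, 0.04 FPKM in PEG2 replicate 2, and 0 in the remaining 8. For these 2 unigenes the CK0 replicates lay closer together than for Cluster-31803.45377.

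The transport group had 1 unigene, and it showed both the highest single value and the widest spread. Cluster-31803.52032, described as Multidrug resistance-associated protein 6, an ABC transporter, had 33.93 FPKM in CK0 replicate 1 and 120.83 FPKM in replicate 2, a ratio of 3.56. It was listed at 0 in all 10 day-18 libraries. By the estimated depth, an observed 0 allows up to 3 fragments per library for counting error alone, which at its length of 1822 bp would be an FPKM of 0.0684 to 0.107.

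DNA polymerase domains occurred in 2 unigenes. Cluster-31803.37732, described as DNA polymerase IV 1 and carrying the impB/mucB/samB domain of damage-bypass polymerases, had 21.52 and 42.15 FPKM in CK0 and at most 0.12 FPKM (Nacl2 replicate 2) on day 18. Cluster-31803.61204, with the exonuclease domain of family B DNA polymerases, had 16.72 and 27.73 FPKM in CK0, 0.23 FPKM in Nacl2 replicate 2, an estimated 5.13 fragments, and 0 in the other 9. Both were higher in CK0 replicate 2 than in replicate 1, by 1.96 and 1.66 times.

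The 2 unigenes with an RTP801 C-terminal region were higher in CK0 replicate 1. Cluster-31803.60842 had 40.04 and 20.47 FPKM in CK0 and at most 0.10 FPKM on day 18. Cluster-31803.60843, which also carries a TRAF-like zinc finger, had 27.87 and 20.18 FPKM in CK0 and values above 0 in only 3 day-18 libraries, with 0.11 FPKM in Nacl2 replicate 2 and 0.25 FPKM in both PEG1 replicate 1 and PEG2 replicate 1. For both unigenes CK18 and Nacl1 were at 0 throughout.

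The remaining 3 unigenes were described by PFAM domains alone. Cluster-31803.85548, with the K-box region that pairs MADS-box transcription factors in land plants, had 24.50 and 12.58 FPKM in CK0 and at most 0.07 FPKM on day 18. Cluster-31803.57679 had domains of GNAT acetyltransferases, which transfer an acetyl group from acetyl-CoA, together with an RNA recognition motif, and had 10.88 and 15.60 FPKM in CK0 and 0.01 FPKM in 1 day-18 library. This was the lowest CK0 value of the 11 and, at 6261 bp, the longest unigene.

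Cluster-31803.33416, named by a domain of an adenovirus minor capsid protein, stood apart from the other 10 on day 18. Its FPKM was 15.43 and 12.66 in CK0, 0.07 and 0 in CK18, 0.19 and 0.38 in Nacl1, 0.39 and 0.46 in Nacl2, 0.12 and 0.37 in PEG1, and 0.32 and 0 in PEG2. It was above 0 in 8 of the 10 libraries, with about 203 fragments in all, and both Nacl2 libraries were higher than the other 8.

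The limits are arbitrary, and the unigenes on either side of them had similar values. Just inside the CK0 limit were Cluster-31803.57679, Cluster-31803.85548 and Cluster-31803.33416, with lower CK0 values of 10.88, 12.58 and 12.66 FPKM. Just outside it were Cluster-31803.66709 at 8.18 and 10.65 FPKM, Cluster-31803.46065 at 7.80 and 10.41 FPKM, and Cluster-31803.40603 at 10.43 and 7.64 FPKM. The latter pair are an FAD-dependent oxidoreductase and a quinone oxidoreductase-like protein by their annotation.

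At the day-18 limit, the highest values of unigenes inside were 0.46 FPKM (Cluster-31803.33416), 0.25 FPKM (Cluster-31803.60843) and 0.23 FPKM (Cluster-31803.61204). Those just outside had 0.59 FPKM (Cluster-31803.40701, a haloacid dehalogenase-like hydrolase), 0.59 FPKM (Cluster-31803.62512, a CD2 tail-binding protein) and 0.60 FPKM (Cluster-31803.59546, of the Mlo family). A CK0 limit of 5 FPKM gave 26 unigenes and a limit of 20 FPKM gave 7. A day-18 limit of 0.1 FPKM gave 5 and a limit of 1 FPKM gave 23.

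Each other group was also taken as the only high group, with the same limits and the same annotation rule. This gave 1 unigene for CK18, 1 for Nacl1, 12 for Nacl2, 11 for PEG1 and 0 for PEG2. The number found for CK0 was therefore not the highest of the 6 groups. Without the annotation rule the counts were 23 for CK0, 7 for CK18, 1 for Nacl1, 31 for Nacl2, 60 for PEG1 and 1 for PEG2.

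Words for kinases and signalling occurred in the annotation of 4 of the 11 unigenes (36.4%), which are the 3 phototropin-like ones and the ABC transporter through a GTPase domain, against 12.8% of the unigenes of the annotation rule. Words for nucleic acids and chromatin occurred in 4 (36.4%, against 17.4%), namely both DNA polymerases, Cluster-31803.57679 and Cluster-31803.60843. Transport and redox or lipid words each occurred in 1 unigene, and 3 unigenes had no word of any class. Words for mobile elements, repeat domains, proteolysis, cell wall and carbohydrate, and cytoskeleton and cilia occurred in 0. With 11 unigenes from 8 proteins these shares rest on few cases, and the 3 phototropin-like unigenes count 1 protein 3 times.

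A de novo assembly can hold several unigenes for 1 gene, so the other unigenes with the same best NR hit were examined next. The rule also screened their values, and any that met it would be among the 11. The others are therefore short of unigenes with the day-0 pattern, except where a KO identifier or missing annotation kept these out. Leaving the 11 out moves sums over the others upward in CK18 against CK0. The 8 proteins had 146 unigenes, 4 to 38 per protein with a median of 17, against a mean of 3.77 and a median of 1 over all NR proteins. Besides the 11 they were 135 other unigenes, of which 14 had at least 10 FPKM in both CK0 libraries, 12 had at least 10 FPKM in both CK18 libraries and 8 were at 0 in all 12 libraries.

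CK18 was compared with CK0 for single unigenes with limma on log2 values of scaled FPKM, with calls at a Benjamini-Hochberg adjusted p under 0.05 and a log2 fold change of at least 1 in size. Of the 135 other unigenes, 89 passed the filter on low values. In CK18, 24 of the 89 were down-regulated (27%), where 12.4% of all 103195 unigenes tested were, and 10 were up-regulated (11.2%), where 9.56% of all were. The other 55 were not called. Of the 24 down-regulated ones, 5 passed the filter through CK0 alone and could only differ in that direction, and 4 of the 10 up-regulated ones had no CK0 library at the filter limit. On FPKM as deposited the counts were 30 down (33.7%) and 7 up (7.87%), where 17.6% of all unigenes were down and 6.82% up.

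**Figure D2:**
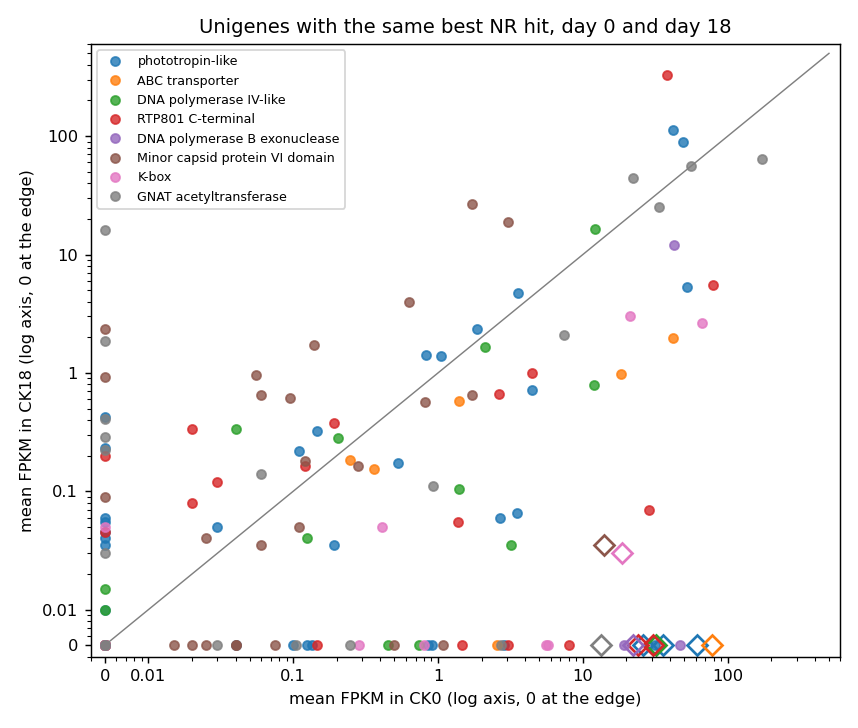
Mean FPKM in CK18 against mean FPKM in CK0 (log axes, 0 at the edge, n = 2 libraries each) of the 135 other unigenes (filled circles) and the 11 day-0 unigenes (open diamonds), coloured by the 8 proteins, with a line of equal level. The open diamonds lie at the lower right by the rule, while filled circles of the same colours lie on both sides of the line, among them 1 RTP801 unigene above 300 FPKM in CK18.

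The libraries were scaled by the median ratio, and this choice bears on every direction given here. Relative to FPKM as deposited, scaling moved the difference between CK18 and CK0 up by 0.69 on the log2 scale for unigenes and by 1.12 for sums per protein. Of the calls over all protein sums, 57.6% were up-regulated with these factors, 45.6% with the factors of the unigenes, 52% with quantile normalization and 25.9% on FPKM as deposited. Log2 fold changes on FPKM as deposited are therefore given beside the scaled ones for the sums per protein in CK18.

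Sums over the other unigenes of each protein went in both directions. In CK18 against CK0, 3 of the 8 sums were lower (ABC transporter, family B polymerase and K-box), 3 were higher (capsid-domain, RTP801 and phototropin-like) and 2 were not called (GNAT and DNA polymerase IV). The lower 3 were called with each scaling, but the higher ones became 2 on FPKM as deposited and 1 with quantile normalization, and without the highest unigene of each protein 1 sum was higher and 5 were lower. Over all 24311 protein sums tested, 15.5% were higher and 11.4% lower, and 8.34% and 23.8% on FPKM as deposited. The same limma test was used, on sums that leave out the 11 unigenes.

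**Figure D3:**
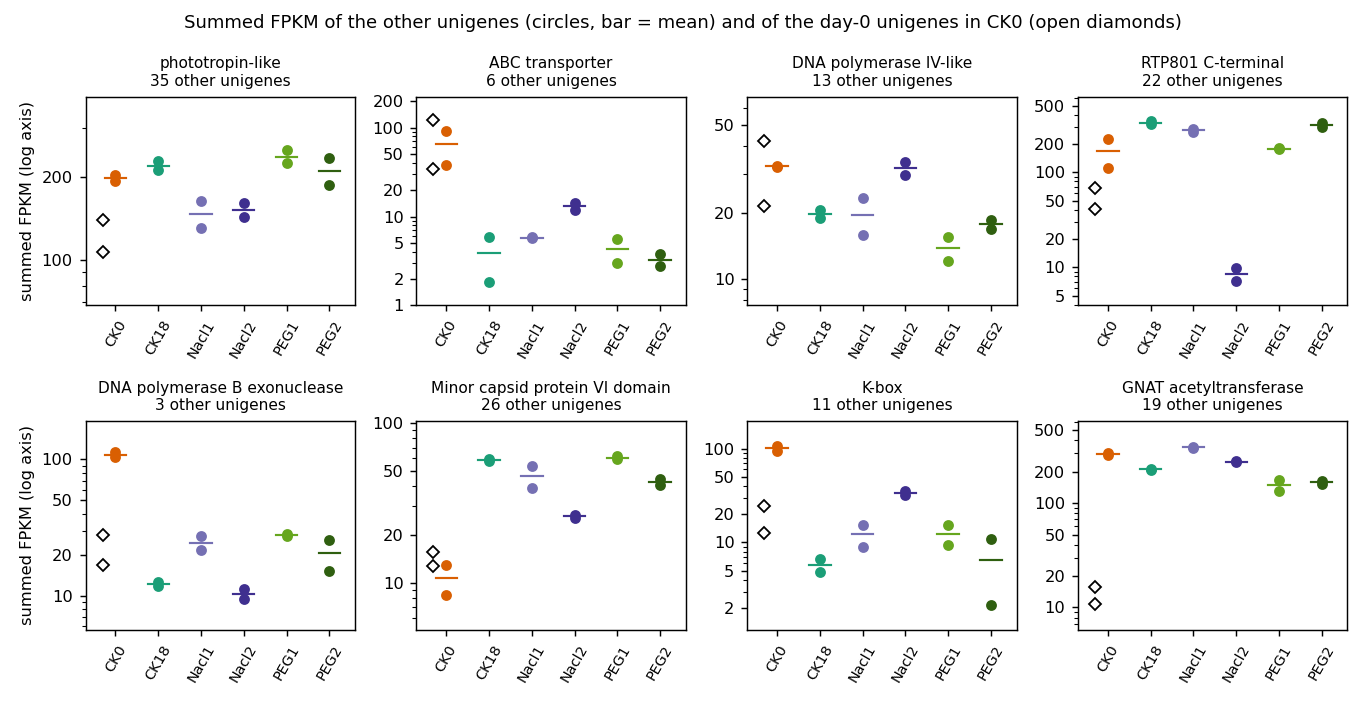
Summed FPKM as deposited (log axes that differ between panels) of the other unigenes of each of the 8 proteins, 1 circle per library with a bar at the mean of the 2 libraries, and the sum of the day-0 unigenes of that protein in the CK0 libraries as open diamonds. The sums of the ABC transporter, the family B polymerase and the K-box protein are highest in CK0, the sum of the capsid-domain protein is lowest there, and the RTP801 sum is lowest in Nacl2.

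The sums of 3 proteins fell together with their day-0 unigene. For the ABC transporter, the 6 other unigenes summed to 38.5 and 91.1 FPKM in CK0 and to 1.84 and 5.93 FPKM in CK18, a log2 fold change of -3.01 ± 0.62 (SE, limma adjusted p = 0.00502) and of -4.12 as deposited. Both CK0 libraries were above both CK18 libraries. By FPKM, the largest contributions in CK0 came from the short Cluster-31803.53602 (291 bp, 24.31 and 59.33 FPKM) and from Cluster-31803.62281 (9.74 and 27.06 FPKM in CK0, 0.79 and 1.18 FPKM in CK18), which has the same SwissProt description as the day-0 unigene. The depth estimate takes about 268 and 269 bases off each length in CK0 replicates 1 and 2. At 291 bp, the FPKM of the short unigene therefore rest on few fragments. Without this unigene the sum was still lower in CK18 (log2 fold change -2.32, limma adjusted p = 0.00926). The call of the short unigene was lost without CK0 replicate 1, CK0 replicate 2 or CK18 replicate 1 (limma adjusted p = 0.0714, 0.134 and 0.057), whereas that of Cluster-31803.62281 held in 14 of 14 alternatives.

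The family B polymerase had 3 other unigenes, and all 3 were down-regulated in CK18. They summed to 112.74 and 104.14 FPKM in CK0 and to 11.75 and 12.52 FPKM in CK18, a log2 fold change of -2.03 ± 0.32 (limma adjusted p = 0.00106) and of -3.15 as deposited. Cluster-31803.61247 and Cluster-31803.61254, both described as the catalytic subunit of DNA polymerase delta, the replicative enzyme with proofreading activity, had 47.90 and 45.05 FPKM and 28.21 and 9.96 FPKM in CK0. In CK18 the former had 0 and 0.01 FPKM and the latter 0 in both libraries.

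Nearly all of the CK18 signal of this protein came from 1 short unigene. Cluster-31803.61237, of 460 bp and without a polymerase domain in its annotation, had 36.63 and 49.13 FPKM in CK0 and 11.75 and 12.51 FPKM in CK18. It was called at a log2 fold change of -1.11 (limma adjusted p = 0.0428), a call that held in 7 of 14 alternatives and was lost without any 1 of the CK0 or CK18 libraries (limma adjusted p = 0.0504 to 0.17).

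The K-box name rests on the day-0 unigene alone, as none of the 11 other unigenes of this protein had a PFAM domain or a SwissProt description. Of these 11, 6 were tested and 4 were down-regulated. Their sum was 93.1 and 107.86 FPKM in CK0 and 6.67 and 4.79 FPKM in CK18, a log2 fold change of -3.01 ± 0.63 (limma adjusted p = 0.00526) and of -4.12 as deposited. Cluster-31803.50945 gave most of it, with 57.36 and 75.78 FPKM in CK0 and 3.23 and 2.01 FPKM in CK18. Its own call was lost without CK0 replicate 2 or CK18 replicate 2 (limma adjusted p = 0.0565 and 0.0621).

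The sums of 3 proteins were higher in CK18, against the direction of their day-0 unigenes. The clearest was the protein of the capsid-domain unigene, whose 26 other unigenes summed to 8.37 and 12.96 FPKM in CK0 and to 59.1 and 57.95 FPKM in CK18, a log2 fold change of 3.59 ± 0.33 (limma adjusted p = 5.01e-05) and of 2.48 as deposited. Of its 16 tested unigenes, 4 were up-regulated and 12 were not called. Cluster-31803.12286, described as Protein sel-1 homolog 1, went from 1.11 and 2.33 FPKM to 27.15 and 26.46 FPKM, and Cluster-31803.89147, described as the E3 ligase component HRD3A, went from 2.72 and 3.35 FPKM to 18.91 and 18.63 FPKM. In yeast and animals, proteins of the sel-1/HRD3 family serve the degradation of misfolded proteins at the endoplasmic reticulum. Cluster-31803.89147 carries the same capsid domain name as the day-0 unigene. Most of the other unigenes of this protein were described as HRD3A or as a sel-1 homolog. The capsid-domain label is therefore only the PFAM name of the day-0 unigene.

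The RTP801 sum was raised by a single unigene. The 22 other unigenes summed to 110.55 and 224.49 FPKM in CK0 and to 323.71 and 343.96 FPKM in CK18, a log2 fold change of 2.20 ± 0.39 (limma adjusted p = 0.00225) and of 1.08 as deposited. Cluster-31803.86023, described as N-alpha-acetyltransferase 50 and not as RTP801, had 17.45 and 58.71 FPKM in CK0 and 317.46 and 333.01 FPKM in CK18. Without the highest unigene, the sum was lower in CK18 by a log2 fold change of -2.78 (limma adjusted p = 0.00827). Cluster-31803.52988, which does carry the RTP801 region, fell from 67.93 and 90.42 FPKM to 4.06 and 6.90 FPKM (log2 fold change -3.18, limma adjusted p = 0.00195), a call that held in 14 of 14 alternatives.

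The phototropin-like protein had 35 other unigenes, which summed to 193.34 and 203.47 FPKM in CK0 and to 211.19 and 227.15 FPKM in CK18. The log2 fold change was 1.26 ± 0.22 (limma adjusted p = 0.00209), but the call was lost in 8 of 26 alternatives. The log2 fold change was 0.14 as deposited, 0.09 with quantile normalization, 0.83 with the factors of the unigenes, 0.07 with sums weighted by length, 0.56 without the highest unigene and 0.9999 without CK0 replicate 1, and the adjusted p was 0.0538 by limma with only CK0 and CK18 in the fit. With the 3 day-0 unigenes included, which made up 35.6% and 40.6% of the CK0 sums, it was 0.57, so leaving them out itself moves the difference upward. Single unigenes of this protein differed in direction. Among 20 tested unigenes 2 were up-regulated and 6 were down-regulated.

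Of the phototropin unigenes that were up-regulated, both were described as Phototropin-2. Cluster-31803.78656 (612 bp) went from 43.15 and 41.12 FPKM in CK0 to 114.29 and 111.05 FPKM in CK18, and Cluster-31803.78657 (2142 bp) from 43.33 and 54.57 FPKM to 80.90 and 96.54 FPKM, although the latter was not called on FPKM as deposited (log2 fold change 0.86). Among those that were down-regulated, Cluster-31803.54571 (6407 bp), described as Phototropin-1A, went from 54.10 and 50.08 FPKM to 4.83 and 5.89 FPKM. Cluster-31803.49540, also described as Phototropin-1A, had 27.53 and 34.98 FPKM in CK0 and 0 in all 10 day-18 libraries, and only its KO identifier kept it out of the 11. Cluster-31803.78659, described as Phototropin-2 like the up-regulated pair, was also called lower. It went from 0.42 and 1.40 FPKM in CK0 to 0 in both CK18 libraries. These values were low, and the call held in 7 of 13 alternatives, with a log2 fold change of -0.72 and no call when 1 was added. The other down-regulated unigenes of this protein were described as Phototropin-1A or Protein kinase PINOID. Among the called unigenes, only this weak call therefore departed from a split by SwissProt description. The other 12 tested unigenes of this protein were not called. They include some described as Phototropin-2, Phototropin-1 or Phototropin-1A, so the split does not cover them.

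The sums of the GNAT and DNA polymerase IV proteins were not called in CK18, and the sign of both depended on the scaling. The 19 other GNAT unigenes summed to 304.21 and 289.80 FPKM in CK0 and to 209.12 and 212.99 FPKM in CK18, a log2 fold change of 0.63 ± 0.21 (limma adjusted p = 0.0481, 95% interval 0.16 to 1.09) under the fold limit and of -0.49 as deposited. Among them, Cluster-31803.57639, of 5906 bp and with nearly the same domains as Cluster-31803.57679, showed the reverse of the day-0 pattern. It had 0 and 0.01 FPKM in CK0, 14.53 and 17.79 FPKM in CK18, and up to 42.97 FPKM (Nacl2 replicate 2) in the treated groups. It was up-regulated in CK18 in all 14 alternatives (limma adjusted p = 3.07e-06), with a size that depends on the value added before taking logs. Because both CK0 values were below the filter limit, it passed through day-18 libraries and could only differ in that direction. It was also picked for these values, so the call adds no independent evidence of a reversal.

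The 13 other DNA polymerase IV unigenes summed to 32.69 and 32.15 FPKM in CK0 and to 20.50 and 18.85 FPKM in CK18, a log2 fold change of 0.40 ± 0.27 (limma adjusted p = 0.361, 95% interval -0.21 to 1.01) and of -0.72 as deposited. Cluster-31803.75236, described as DNA polymerase IV 1 like the day-0 unigene, was at 17.41 and 7.02 FPKM in CK0 and 17.02 and 15.78 FPKM in CK18 and was not called (limma adjusted p = 0.103). Cluster-31803.84197, with the same description, fell from 9.41 and 14.48 FPKM to 0.70 and 0.87 FPKM (log2 fold change -3.09, limma adjusted p = 0.00396), also in 14 of 14 alternatives. It had 14.13 and 10.03 FPKM in Nacl2.

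**Figure D4:**
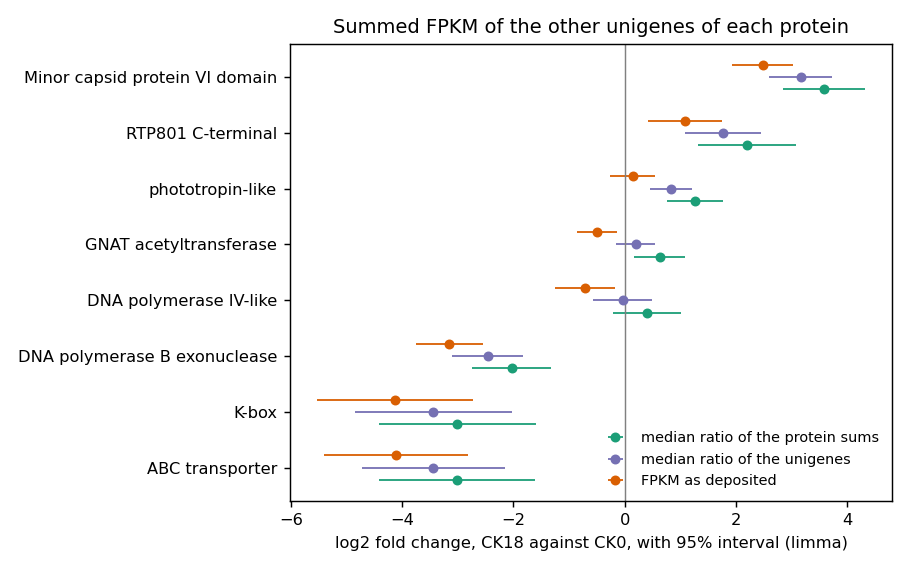
Log2 fold change of CK18 against CK0 (x axis, limma, bars = 95% interval, n = 2 libraries per group) of the summed FPKM of the other unigenes of each of the 8 proteins, with 3 ways of scaling the libraries in different colours. The family B polymerase, K-box and ABC transporter sums lie below 0 and the capsid-domain sum above 0 with each scaling, whereas the GNAT and DNA polymerase IV sums change sign.

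The treated groups were compared with CK18 to see whether the RNA sums over the other unigenes differed with salt or PEG on day 18. The 11 unigenes themselves were at or near 0 in all of these groups. Over the 8 sums and 4 treatments there were 8 calls, of which 7 were lower and 1 was higher. PEG2 gave 0 calls by limma, where 1.59% of all protein sums were higher and 0.991% lower, and 1 of the 8 sums, that of the family B polymerase, had an unadjusted limma p under 0.05. The count of 8 fell to 5 on FPKM as deposited, where 3 were higher and 2 lower, and to 4, all lower, with quantile normalization or without CK18 replicate 1. Without the highest unigene of each protein 6 were higher and 3 lower, so the balance of directions was not stable.

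High salt gave 4 of these calls. In Nacl2 the RTP801 sum was 9.76 and 7.19 FPKM, a log2 fold change of -5.86 ± 0.39 against CK18 (limma adjusted p = 2.87e-05) and of -5.30 as deposited. Cluster-31803.86023 was listed at 0 in both Nacl2 libraries and had 167.17 FPKM or more in each of the other day-18 libraries, and without it the difference was -0.54 (limma adjusted p = 0.553). The capsid-domain sum was also lower in Nacl2, at 26.51 and 25.41 FPKM, with a log2 fold change of -1.73 ± 0.33 (limma adjusted p = 0.00313) and of -1.17 as deposited, a call that held in 25 of 25 alternatives. Over all protein sums, 13.9% were lower and 18.3% higher in Nacl2.

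The phototropin-like sum was 160.54 and 143.05 FPKM in Nacl2, a log2 fold change of -1.10 ± 0.22 (limma adjusted p = 0.00471), and was -0.53 as deposited and not called without Nacl2 replicate 2 (limma adjusted p = 0.0584). Among the 8 sums and 4 treatments, the K-box sum in Nacl2 was the only one that was called higher, at 32.16 and 35.29 FPKM in Nacl2 against 6.67 and 4.79 FPKM in CK18. Its log2 fold change was 1.996 ± 0.63 (limma adjusted p = 0.0352) and 2.55 as deposited, and the call was lost without any 1 of the CK18 or Nacl2 libraries (adjusted p = 0.0685 to 0.165 by limma). All Nacl2 values of this sum were above all other day-18 values and below both CK0 values.

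The other 4 calls were in Nacl1 and PEG1. The phototropin-like sum was lower in Nacl1 (162.83 and 130.63 FPKM, log2 fold change -1.23, limma adjusted p = 0.0123, where 4.35% of all sums were lower and 3.47% higher), but it was lost without any 1 of the CK18 or Nacl1 libraries and was -0.59 as deposited. In PEG1, where 7.51% of all sums were lower, the GNAT sum (131.17 and 165.75 FPKM, log2 fold change -1.10), the RTP801 sum (180.72 and 173.71 FPKM, -1.50) and the DNA polymerase IV sum (15.59 and 12.10 FPKM, -1.10) were called lower by limma with adjusted p of 0.00378, 0.0217 and 0.0161. None of these 3 calls was kept on FPKM as deposited, and each was lost without PEG1 replicate 1 (limma adjusted p = 0.0668, 0.093 and 0.0506). The RTP801 call was also lost without PEG1 replicate 2 or either CK18 library (limma adjusted p = 0.14, 0.0895 and 0.077), and the DNA polymerase IV call without PEG1 replicate 2 or CK18 replicate 1 (limma adjusted p = 0.189 and 0.0983). Without the highest unigene of the protein, the RTP801 difference was -0.93 (limma adjusted p = 0.352) and the DNA polymerase IV difference turned to 0.26 (limma adjusted p = 0.693).

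Between the salt levels, the RTP801 sum was lower in Nacl2 than in Nacl1 (log2 fold change -4.94, limma adjusted p = 0.000256), as was the family B polymerase sum (-1.14, limma adjusted p = 0.0317), where 8.33% of all sums were lower and 13% higher. The fall of the polymerase sum came from Cluster-31803.61237, which has no polymerase domain in its annotation. It had 17.85 and 18.11 FPKM in Nacl1 and 4.53 and 3.39 FPKM in Nacl2. The unigenes described as DNA polymerase delta overlapped between the levels. Cluster-31803.61247 had 3.14 and 6.66 FPKM in Nacl1 and 3.81 and 5.1 FPKM in Nacl2. Cluster-31803.61254 had 0.58 and 2.5 FPKM in Nacl1 and 1.19 and 2.71 FPKM in Nacl2. Between the PEG levels, the RTP801 sum (1.54, limma adjusted p = 0.0245) and the DNA polymerase IV sum (1.07, limma adjusted p = 0.0232) were higher in PEG2 than in PEG1, where 7.05% of all sums were higher and 9.77% lower. Most of the RTP801 sum was Cluster-31803.86023, at 174.29 and 167.17 FPKM in PEG1 and 315.74 and 293.89 FPKM in PEG2. Cluster-31803.52988, with the RTP801 region, had 2.90 and 2.53 FPKM in PEG1 and 4.84 and 1.84 FPKM in PEG2. The comparisons between levels were not refitted without single libraries or without the highest unigene. On FPKM as deposited both salt differences were called (-5.02 and -1.22) and both PEG differences were not (0.83 and 0.36).

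Against CK0, with the same CK0 libraries in each comparison, the treated groups gave 18 calls among the 8 sums, 7 higher and 11 lower. On FPKM as deposited, and also with quantile normalization, 4 were higher and 14 lower, without the highest unigene of each protein 4 were higher and 16 lower, and without CK0 replicate 2 the split was 9 higher and 7 lower. The capsid-domain sum was higher than in CK0 in all 4 treated groups, with log2 fold changes from 1.85 (Nacl2) to 3.25 (PEG2). As deposited they ran from 1.31 (Nacl2) to 2.53 (PEG1). With the day-0 unigene included, the Nacl2 log2 fold change of this sum was 0.65 and was not called (limma adjusted p = 0.0764). The family B polymerase sum was lower in all 4, from -1.21 (PEG2) to -2.82 (Nacl2), and from -1.95 (PEG1) to -3.38 (Nacl2) as deposited. The ABC transporter and K-box sums were called lower in Nacl1, PEG1 and PEG2 and had log2 fold changes of -1.62 (limma adjusted p = 0.0809) and -1.02 (limma adjusted p = 0.254) in Nacl2, of which the former was called as deposited (-2.17, limma adjusted p = 0.0233) and the latter was not (-1.57, limma adjusted p = 0.0812). The RTP801 sum was higher in Nacl1 and PEG2 and lower in Nacl2, and the phototropin-like sum was higher in PEG2.

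Of all protein sums, 11.6% were higher and 7.68% lower in Nacl1, 15.6% and 9.58% in Nacl2, 20.5% and 9.4% in PEG1, and 18.8% and 13.7% in PEG2. On FPKM as deposited the log2 fold changes in PEG2 were 0.997 for RTP801 and 0.07 for the phototropin-like sum, and neither was called. The RTP801 call in Nacl1 was kept in 4 of 25 alternatives, and without Cluster-31803.86023 the log2 fold change was -0.90 there and -2.70 in PEG2. Without CK0 replicate 2, limma no longer called the ABC transporter in Nacl1 (adjusted p = 0.0717), the K-box protein in Nacl1 (0.105) and PEG1 (0.0802), and the family B polymerase in PEG2 (0.0814). Leaving out 1 treated library ended the calls of the ABC transporter (without Nacl1 replicate 1, limma adjusted p = 0.0549), of the K-box protein (without Nacl1 replicate 2, 0.101, or PEG1 replicate 1, 0.0885) and of the family B polymerase (without PEG1 replicate 2, 0.0652, or PEG2 replicate 1, 0.126).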

How the data were processed

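RNA was sequenced in 12 libraries, 2 biological replicates of 6 groups. Filtered reads were assembled by the authors with Trinity, transcripts were grouped into unigenes with Corset, and reads were mapped back with Bowtie 2 and quantified with RSEM. The deposited values are FPKM with 2 decimals, so counts are not used here and the depth was estimated from the steps between low FPKM values. A deposited annotation table gives the length, best hits and domains of each unigene. RSEM divides reads among similar unigenes, so single unigenes of 1 protein are less certain than their sum.

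The 11 unigenes, the word lists of the classes and the tests were chosen with earlier results of these data known, and the other unigenes described by name were picked after their values had been seen. Named besides all 11 were the proteins with called sums and the 3 unigenes on each side of each limit. FPKM of unigenes, or sums over unigenes with the same best NR hit without the 11, were kept at 0.3 or more in at least 2 libraries, divided by the median ratio of the library, and tested as log2 (FPKM + 0.1) with limma 3.58.1 in R 4.3.3. All 12 libraries were in 1 fit with the group as term, an intensity trend and 6 residual degrees of freedom. Tests were two-sided with Benjamini-Hochberg adjustment over all 103195 unigenes or 24311 sums, and values given after ± are standard errors. The fit was tested on simulated data. Alternatives were other values added (1 and 0.01), filters, scalings, thresholds and groupings, fewer groups, a block for the replicate number and leaving out each library. Sums weighted by length, sums without the highest unigene, the factors of the unigenes and all alternatives for the treated groups were added after seeing the data. Python 3.11.15 with pandas 2.3.3 was used for the descriptions. Reads and counts were not analysed here, and no nucleotide or protein sequences were used.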

Additional observations from a re-analysis of the deposited data

How the results depend on the processing

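The sums of the ABC transporter, the family B polymerase, the K-box protein and the capsid-domain protein kept their direction and their call in CK18 against CK0 under all 26 alternatives each. The number of called sums was 5 to 6 without 1 of the CK0 or CK18 libraries, and the number of other unigenes called was 24 to 27 (34 with all). The GNAT sum turned to -0.49 on FPKM as deposited and to -0.58 with quantile normalization. The DNA polymerase IV sum turned to -0.72 as deposited, to -0.033 with the factors of the unigenes, to -0.57 with the day-0 unigene included and to -1.44 without its highest unigene, and the RTP801 sum to -2.78 without its highest unigene. The causes were not tested, other than that including or leaving out a unigene changes the sum by construction. For the treated groups against CK18, 8 calls became 5 as deposited or with the factors of the unigenes, 4 with quantile normalization or an adjusted p under 0.01, 2 with proteins defined by SwissProt description, and 4 to 8 without 1 library. Against CK0 there were 16 to 18 calls without 1 library. The 11 unigenes became 26 or 7 with CK0 limits of 5 or 20 FPKM, 5 or 23 with day-18 limits of 0.1 or 1 FPKM, 23 with any annotation, and 9 on scaled FPKM, of which 8 were among the 11. A replicate block gave 6 called sums, 33 called unigenes, and 9 and 18 calls of treated groups against CK18 and CK0. Replicate numbers gave no sign of pairing CK0 with day-18 libraries, as differences between replicates of CK0 and of another group correlated at 0.00667 to 0.0913. Pairing among the day-18 groups was not examined. With 2 libraries per group and no counts in the file, the precision of single low values is not known.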

Other observations

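Unigenes with a KO identifier or with no annotation of either kind were outside the rule, and 12 of them showed the same FPKM pattern. Of these, 8 had a KO identifier and a best hit in *Chlorella variabilis*. The highest was Cluster-31803.55944, named PNO1 after an RNA-binding protein needed in yeast to make the small ribosomal subunit, with 53.29 and 93.84 FPKM in CK0 and at most 0.49 FPKM on day 18. Cluster-31803.57294, named after the GTPase TypA/BipA that acts on ribosomes in bacteria, had 51.51 and 45.68 FPKM in CK0 and at most 0.19 FPKM on day 18. Also of RNA metabolism was Cluster-31803.66428, named after CNOT9, a subunit of the complex that shortens the tails of messenger RNA, with 12.29 and 11.60 FPKM in CK0.

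Metabolic enzymes made up another 3. Cluster-31803.30416, a D-lactate dehydrogenase, which interconverts pyruvate and D-lactate, had 33.20 and 39.26 FPKM in CK0 and up to 0.38 FPKM in Nacl2. Cluster-31803.46901, described as Isoamylase 3, a starch-debranching enzyme of the chloroplast, had 37.02 and 20.38 FPKM in CK0, and Cluster-31803.14223, described as prolycopene isomerase of carotenoid synthesis, had 20.76 and 11.62 FPKM. For Cluster-31803.79955 (14.33 and 12.41 FPKM) the KO name, mnmE, and the SwissProt description, a citrate lyase beta-like protein, name different proteins. The phototropin unigene Cluster-31803.49540 was the remaining one with a KO identifier.

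The 4 unigenes without annotation were short. Cluster-31803.47260 had 680 bp and a best hit in the red alga *Chondrus crispus*, and the other 3 had 220 to 265 bp and no NR hit, with 10.70 to 23.73 FPKM in CK0 and 0 in all day-18 libraries. The depth estimate takes about 252 to 273 bases off each length, depending on the library. At 220 to 265 bp, such FPKM can rest on very few fragments, and a value of 0 says little. These levels are descriptions chosen by the same limits and were not tested.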
